A study of Mus musculus with 12 samples.

Results

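The genes described here encode 10 growth factors and growth factor carriers that blood cells can make. They are Pdgfa, Pdgfb and Pdgfc, Vegfa and Vegfc, Tgfb1 and its carrier Ltbp1, Angpt1, Igf1 and Egf. They were chosen by name from 19937 genes, and all 10 had a probe set with a single gene symbol. Their mRNA was measured on 12 GeneChip Mouse Gene ST arrays of cells from mouse fetal liver at embryonic stage E14.5, in 3 populations with 4 biological replicates each. MEG (megakaryocytes) were grown in culture from fetal liver progenitors with stem cell factor and thrombopoietin, then matured in thrombopoietin alone and selected with beads on CD41. ERY (erythroblasts) were selected with beads on Ter119 and were not cultured. HSPC (hematopoietic stem/progenitor cells, labelled as stem cells in the deposited arrays) had been depleted of lineage-positive cells, sorted on Sca1 and likewise used without culture. Neither a strain nor a genetic change is given for any of the 3 populations. Culture and lineage therefore cannot be told apart in any comparison that involves MEG. In these bulk samples, fewer cells of a type and less RNA per cell cannot be told apart either.

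Megakaryocytes pack growth factors into alpha granules, and the platelets they shed release them at wounds. PDGF chains pair into dimers that drive the growth of mesenchymal cells, VEGF-A and VEGF-C act on blood and lymphatic endothelium, and angiopoietin-1 acts on the endothelial receptor TIE2. TGF-beta 1 is secreted in a latent complex, which LTBP1 ties to the extracellular matrix until it is activated. IGF-1 and EGF act on widely expressed receptor tyrosine kinases.

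The authors deposited log2 values made by RMA, so that each unit is a 2-fold step. Values of 1 gene are compared between arrays below, and levels of different genes are not set against each other, because probe sets differ in brightness. Changes were tested with limma on all genes, and a gene was called higher or lower above a 2-fold change at a Benjamini-Hochberg FDR under 5%. Each SE and interval below rests on a spread pooled over all populations. Background was described by 1027 olfactory receptor genes, whose mean levels have a median of 4.45 and a 95th percentile of 5.95. All 10 members had a mean above that percentile in MEG, 8 in ERY and 9 in HSPC. Vegfc in ERY and HSPC and Angpt1 in ERY were the exceptions. That percentile pools the populations, and it is the range used below. Background differed between them, with a 95th percentile of 6.09 in MEG, 5.98 in ERY and 5.64 in HSPC. The Vegfc mean in MEG, 5.99, lay below that of MEG.

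The populations carried the markers of their labels, and also those of other cells. The median of 10 megakaryocyte markers was between 12.06 and 12.43 on the MEG arrays, against 7.36 to 8.04 in ERY and 7.86 to 8.97 in HSPC. The median of 10 erythroblast markers was 6.03 to 6.25 in MEG, 12.02 to 12.18 in ERY and 6.66 to 7.76 in HSPC. The stem and progenitor markers had a median of 5.95 to 7.70 in MEG, 5.84 to 6.04 in ERY and 8.82 to 9.54 in HSPC. Of 12 hepatocyte markers, 4 exceeded the olfactory receptor range in MEG, 12 in ERY and 12 in HSPC. The median of those hepatocyte genes was 5.41 to 5.93 in MEG, 10.75 to 11.28 in ERY and 8.49 to 10.19 in HSPC. MEG array 4 had a median over olfactory receptor genes of 5.70, against 4.26 to 4.55 on the other MEG arrays. MEG array 3 had a median of 8.48 over 12 neutrophil and monocyte granule markers, against 6.07 to 6.76 on the other MEG arrays. The HSPC arrays differed along a single axis that held 92.8% of the variance of their deviations, with arrays 1 and 2 on one side and arrays 3 and 4 on the other. The bearing of these differences on the members was not tested, apart from the comparisons without those arrays given below.

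Promoter windows from RefSeq (GRCm38.p6, 250 bases before to 50 bases after a start site) were at hand for 8 of the 10 members. Pdgfb and Angpt1 had none. Among the 5 members called between MEG and ERY, 3 had windows, 5 in all, and these were searched on both strands for the GATA factor motifs AGATAA and, as a variant, TGATAA, for the ETS factor motif GGAAGT and for the RUNX factor motif TGTGGT. The 250 bases upstream are printed for both start sites of Ltbp1, where the motif content differed, and for the Vegfa start that held a GATA motif. The regions are chr17:75005279-75005528 (plus strand) for the upstream Ltbp1 start, chr17:75178531-75178780 (plus strand) for the downstream Ltbp1 start and chr17:46032378-46032627 (minus strand) for Vegfa, and capitals mark motifs.
Ltbp1, upstream start: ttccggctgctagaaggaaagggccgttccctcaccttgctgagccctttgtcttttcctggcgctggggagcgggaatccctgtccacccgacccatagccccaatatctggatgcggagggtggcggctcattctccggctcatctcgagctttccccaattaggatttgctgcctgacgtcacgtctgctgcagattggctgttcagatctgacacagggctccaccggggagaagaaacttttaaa
Ltbp1, downstream start: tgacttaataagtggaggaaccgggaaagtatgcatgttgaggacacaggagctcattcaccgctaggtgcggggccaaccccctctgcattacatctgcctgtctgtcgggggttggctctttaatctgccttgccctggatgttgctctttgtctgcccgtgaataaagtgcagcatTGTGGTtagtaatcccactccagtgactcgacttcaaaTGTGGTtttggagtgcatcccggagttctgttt
Vegfa: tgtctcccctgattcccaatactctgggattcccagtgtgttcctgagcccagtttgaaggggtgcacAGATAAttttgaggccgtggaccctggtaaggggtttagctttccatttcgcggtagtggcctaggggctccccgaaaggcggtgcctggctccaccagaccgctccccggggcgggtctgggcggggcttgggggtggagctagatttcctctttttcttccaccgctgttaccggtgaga

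The window of the downstream Ltbp1 start held 2 copies of TGTGGT, which begin 71 and 33 bases before the start site, and that of the upstream start held none of the 4 motifs. The Vegfa window printed held 1 AGATAA, which begins 182 bases before the start site. The window of a second Vegfa start held 1 GGAAGT, in its 50 bases after the start. The Tgfb1 window held none. Of the members not called between MEG and ERY, Egf held 1 GGAAGT at 43 bases before 1 of its start sites. Pdgfc held 1 GGAAGT at 208 bases before its start site. The windows of Igf1, Pdgfa and Vegfc held none. Among 32851 RefSeq promoter windows of the same length, 16.8% held the RUNX motif, 23.8% the ETS motif and 11.2% the motif AGATAA, while TGATAA was in 9.05%, so motifs of this kind are common. Each match is a description of sequence, and the array values do not tell the start sites of a gene apart.

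Of the 10 members, 5 were called higher in MEG than in HSPC and 0 lower (limma). They were Ltbp1, Angpt1, Vegfa, Pdgfb and Igf1, with changes of 3.90, 2.73, 2.44, 2.29 and 2.08 on the log2 scale. Among all 19937 genes, 8.77% were called higher in MEG and 11.4% lower. The median change of the members was 1.40, against -0.02 over all genes. In 7 members every MEG array lay above every HSPC array, as did 12.01% of all genes. In ERY against HSPC, 1 member was called higher (Igf1) and 2 lower (Tgfb1 and Angpt1), where 8.35% of all genes were called higher and 12.3% lower. The members' median change in ERY was -0.02, against 0.03 over all genes. Both comparisons use the same HSPC arrays. Between MEG and ERY, 5 members were called higher in MEG (Angpt1, Ltbp1, Pdgfb, Tgfb1 and Vegfa) and 0 lower. The background there was 8.75% of genes higher in MEG and 7.77% lower, and the median change was 1.45 for the members and -0.02 for all genes. The counts in gene lists below are to be read beside these shares of all genes.

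**Figure D1:**
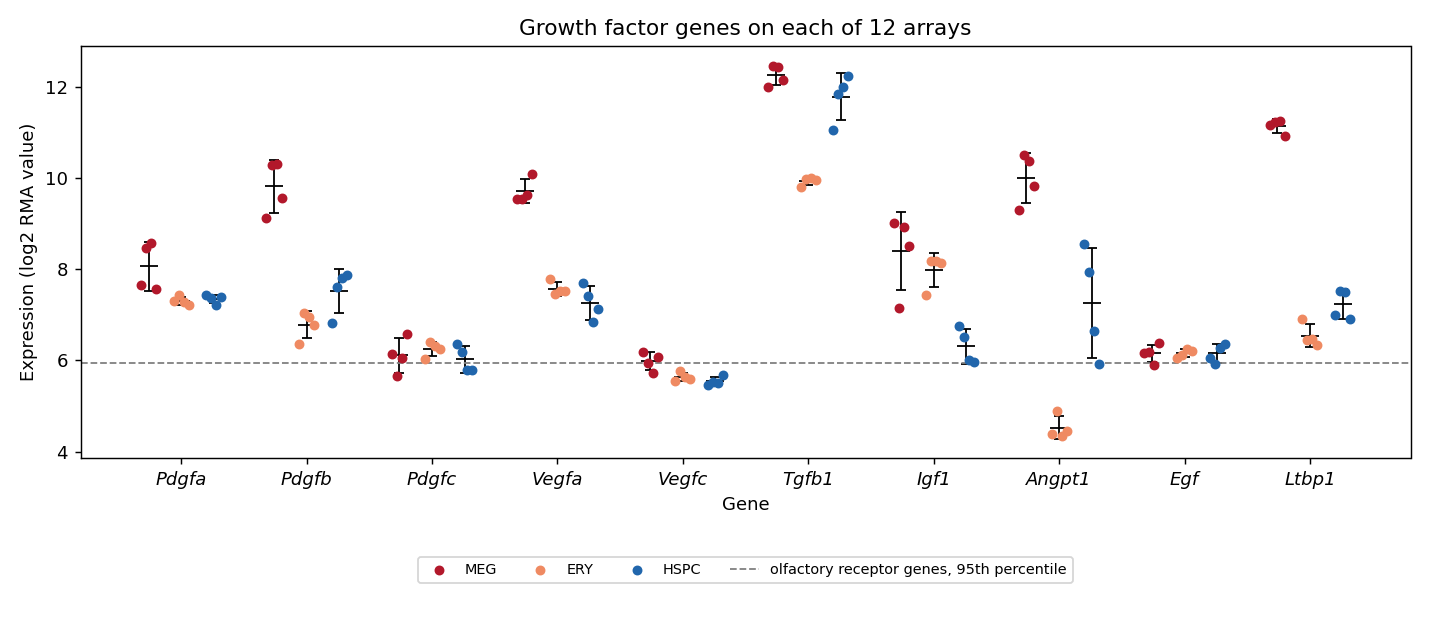
Log2 RMA values of the 10 genes (horizontal axis) on each of 4 MEG, 4 ERY and 4 HSPC arrays. Points are arrays in the order of their replicate numbers, black bars are the mean and SD, and the dashed line is drawn at 5.95, the upper end of the olfactory receptor range. The Ltbp1, Vegfa, Pdgfb and Angpt1 points of MEG lie above all points of ERY and HSPC, and the Tgfb1 points of ERY lie below all others.

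Ltbp1, the latent TGF-beta binding protein, had values of 11.15, 11.22, 11.25 and 10.92 in MEG, 6.91, 6.45, 6.48 and 6.33 in ERY, and 6.99, 7.52, 7.50 and 6.91 in HSPC. The MEG arrays lay close together and far above both other populations. Its change was 3.90 ± 0.18 (SE) in MEG against HSPC, a 15.0-fold difference with a limma adjusted p of 2.52e-08. Against ERY the change in MEG was 4.59 ± 0.18, or 24.1-fold, with a limma adjusted p of 1.29e-09. Every ERY array lay below every HSPC array, but that difference of -0.69 (adjusted p = 0.00928, limma) was under 2-fold.

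Tgfb1, whose product LTBP1 binds, had values of 11.99, 12.45, 12.44 and 12.14 in MEG, 9.80, 9.96, 10.01 and 9.95 in ERY, and 11.05, 11.84, 11.995 and 12.22 in HSPC. ERY arrays lay below all others, and HSPC arrays 3 and 4 reached into the range of the MEG arrays. The change in ERY against HSPC was -1.85 ± 0.22 (limma adjusted p = 3.21e-05), a 3.60-fold lower level. In MEG, Tgfb1 was above ERY by 2.32 ± 0.22 (limma adjusted p = 3.92e-06). Against HSPC the difference in MEG was 0.48 (95% interval 0.00 to 0.95, limma adjusted p = 0.113), which did not pass. Leaving out HSPC array 1 gave 0.23, leaving out HSPC arrays 1 and 2 gave 0.14, and leaving out HSPC arrays 3 and 4 gave 0.81 (limma adjusted p = 0.0213 for the last, under 2-fold), so its size rested on the HSPC arrays used. It also rested on the scaling. Centring on ribosomal protein genes gave 0.96 (limma adjusted p = 0.00186, under 2-fold), and quantile normalization gave 0.49 (limma adjusted p = 0.0714). The granule markers of neutrophils and monocytes, cells that also make TGF-beta 1, had medians of 6.07 to 8.48 in MEG, 6.04 to 6.45 in ERY and 8.77 to 9.38 in HSPC, and their part in the Tgfb1 values was not tested.

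The list of 16 other genes for storing and activating latent TGF-beta was split in MEG against HSPC, with 3 called higher and 3 lower. Thbs1 (thrombospondin 1, an activator of latent TGF-beta) was higher by 4.03 and Lrrc32 (GARP, which holds latent TGF-beta on the cell surface) by 3.26. The change of Plg (plasminogen, made by hepatocytes) was -1.77, and that of Nrros (a myeloid partner of latent TGF-beta) was -1.62. Between MEG and ERY, 6 of the 16 were called higher in MEG and 1 lower. Those with the greatest change were Thbs1 (5.30), Plg (-4.11), Lrrc32 (3.66) and Emilin1 (2.59), which encodes a matrix protein that limits TGF-beta maturation. Relative to HSPC, 1 was called higher in ERY (Plg, 2.34) and 5 lower, among them Nrros (-3.22), Emilin1 (-1.93) and Furin (-1.65), the protease that cleaves the TGF-beta precursor. Lrrc32 levels were 10.41, 10.18, 9.97 and 9.72 in MEG, 6.48, 6.76, 6.27 and 6.13 in ERY, and 6.07, 7.24, 6.67 and 7.25 in HSPC. Its MEG arrays did not overlap with the others. The median change of the list was 0.18 in MEG against HSPC, where that of all genes was -0.02.

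Pdgfb, the B chain of PDGF, had values of 9.12, 10.28, 10.30 and 9.56 in MEG, 6.37, 7.04, 6.95 and 6.77 in ERY, and 6.82, 7.60, 7.81 and 7.86 in HSPC. MEG arrays 2 and 3 were the higher pair, and even the lowest MEG array lay above all ERY and HSPC arrays. The change was 2.29 ± 0.30 in MEG against HSPC, a 4.90-fold difference (limma adjusted p = 9.63e-05), and 3.03 ± 0.30 in MEG against ERY (8.18-fold, limma adjusted p = 6.14e-06). In ERY against HSPC the difference of -0.74 did not pass (95% interval -1.39 to -0.09, limma adjusted p = 0.0793), and the groups overlapped through HSPC array 1. Without HSPC arrays 1 and 2 it was -1.06 and was called lower (limma adjusted p = 0.0218). Leaving out HSPC arrays 3 and 4 instead gave -0.42 (limma adjusted p = 0.391).

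Pdgfa, the A chain, differed among the MEG arrays. It had values of 7.65, 8.46, 8.58 and 7.56 in MEG, 7.31, 7.43, 7.28 and 7.22 in ERY, and 7.43, 7.36, 7.21 and 7.40 in HSPC. MEG arrays 2 and 3 stood clearly above the rest, as for Pdgfb, while MEG arrays 1 and 4 were just above the ERY and HSPC arrays. Its changes of 0.71 against HSPC (limma adjusted p = 0.0206) and 0.76 against ERY (limma adjusted p = 0.0183) were under 2-fold and were not called. Pdgfc, which forms its own dimer, had values between 5.66 and 6.59 over all 12 arrays, with the populations overlapping. Its change was 0.08 in MEG against HSPC (95% interval -0.35 to 0.52) and 0.22 in ERY against HSPC (-0.21 to 0.65). These intervals of the main fit leave out a 2-fold change, but the levels lay near the olfactory receptor range. With centring on ribosomal protein genes the changes were 0.56 ± 0.22 in MEG and 0.63 ± 0.22 in ERY (limma adjusted p = 0.039 and 0.0262). Both were under 2-fold.

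Vegfa, the main angiogenic factor, had values of 9.55, 9.54, 9.63 and 10.09 in MEG, 7.79, 7.45, 7.53 and 7.51 in ERY, and 7.70, 7.41, 6.84 and 7.12 in HSPC. The MEG arrays were all higher, and ERY and HSPC overlapped. The change was 2.44 ± 0.19 in MEG against HSPC (5.42-fold, limma adjusted p = 1.84e-06) and 2.14 ± 0.19 in MEG against ERY (4.39-fold, limma adjusted p = 2.69e-06). In ERY against HSPC it was 0.30 (95% interval -0.11 to 0.72, limma adjusted p = 0.283). Without HSPC arrays 1 and 2 that difference was 0.59 (limma adjusted p = 0.0238), and without HSPC arrays 3 and 4 it was 0.01 (limma adjusted p = 0.962). Quantile normalization gave 0.57 and centring on ribosomal protein genes 0.71 (limma adjusted p = 0.0464 and 0.0159). All of these were under 2-fold. The highest value was on MEG array 4, the array with the raised olfactory receptor median, and without that array the change in MEG against HSPC was 2.31. Vegfc, a lymphatic endothelial factor, lay near background, with means of 5.99 in MEG, 5.64 in ERY and 5.55 in HSPC. Its MEG arrays were all above its HSPC arrays, but the difference of 0.44 (limma adjusted p = 0.0164) was under 2-fold. The median of the olfactory receptor genes was also higher in MEG (4.74) than in HSPC (4.09). The part of background in the Vegfc difference was not tested.

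Of the 4 other PDGF and VEGF family ligands, 0 were called higher in MEG against HSPC and 1 was called lower. That gene, Vegfb, changed by -1.46 in MEG and by -1.67 in ERY, while Vegfa was higher in MEG. Vegfd was the only one called higher in ERY against HSPC (1.44). Vegfa is a known target of the hypoxia-inducible factors, so 18 other hypoxia response genes were counted. In MEG against HSPC, 7 were called higher and 2 lower, among them Ndrg1 (2.87), Bnip3 (2.66), Kdm3a (2.28) and Ddit4 (2.09). ERY against HSPC had 2 called higher and 6 lower, with changes of -4.26 for Egln3 (an oxygen-sensing prolyl hydroxylase), 2.42 for Slc2a1 (the glucose transporter GLUT1), -2.09 for Car9 and -1.94 for Hilpda. In MEG against ERY, 8 were called higher in MEG and 1 lower, led by Egln3 (5.91) and Ndrg1 (3.79). The list's median change was 0.45 in MEG against HSPC, 0.82 in MEG against ERY and -0.38 in ERY against HSPC. Those of all genes were -0.02, -0.02 and 0.03. Of all genes, 8.77% were called higher and 11.4% lower in MEG against HSPC. The part of hypoxia in the Vegfa values was not tested, and culture and lineage cannot be told apart in MEG.

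**Figure D2:**
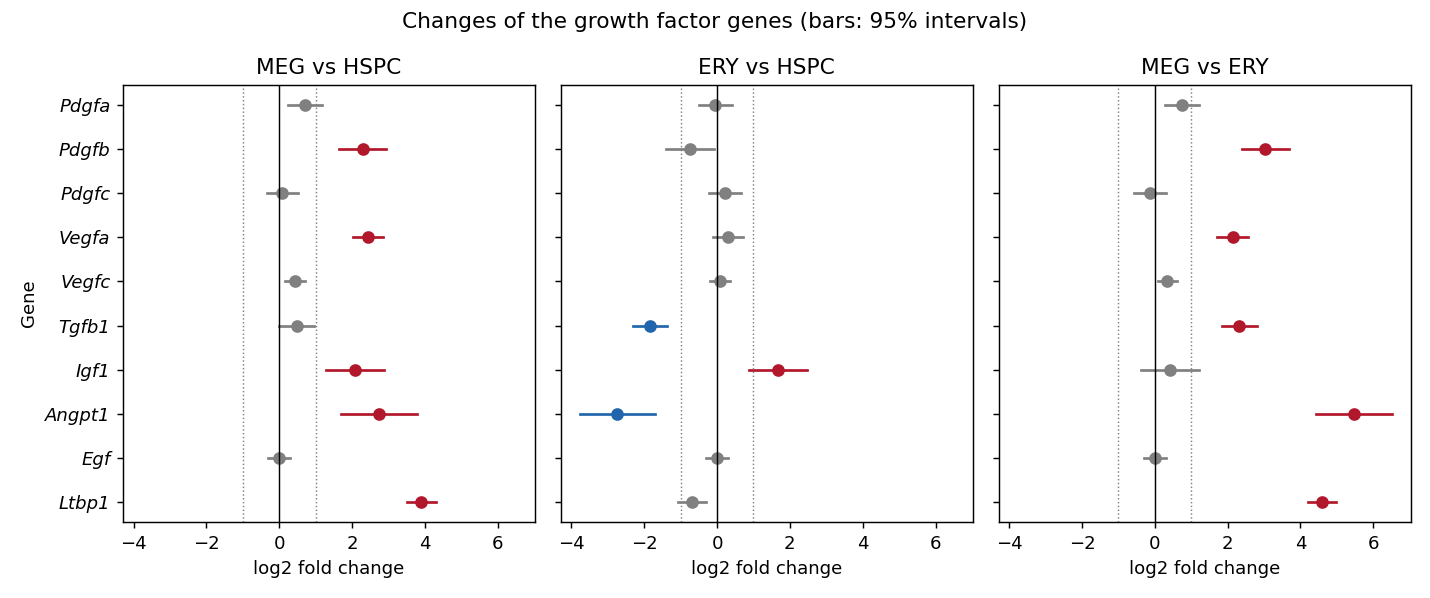
Log2 fold changes (horizontal axes) of the 10 genes (vertical axis) in MEG against HSPC, ERY against HSPC and MEG against ERY. Points are limma estimates, bars are 95% intervals, dotted lines mark 2-fold, and red, blue and grey stand for called higher, called lower and not called. Angpt1 is red in MEG against HSPC (2.73) and blue in ERY against HSPC (-2.74).

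Angpt1 was the only member called in opposite directions in MEG and in ERY relative to HSPC. It had values of 9.29, 10.49, 10.37 and 9.82 in MEG, 4.39, 4.89, 4.35 and 4.46 in ERY, and 8.55, 7.93, 6.64 and 5.91 in HSPC. The 3 populations did not overlap, and the HSPC arrays spread widely, with arrays 1 and 2 high and arrays 3 and 4 low. The change was 2.73 ± 0.48 in MEG against HSPC (6.65-fold, limma adjusted p = 0.000789) and -2.74 ± 0.48 in ERY against HSPC (limma adjusted p = 0.00069). Between MEG and ERY it was 5.47 ± 0.48 (limma adjusted p = 2.09e-06). Its ERY mean, 4.52, was about the ERY median of the olfactory receptor genes, 4.49, so the sizes of both changes that involve ERY rest on the background level. Its size relative to HSPC also rested on which HSPC arrays were used. Without HSPC arrays 3 and 4 the changes were 1.75 in MEG and -3.72 in ERY, and without HSPC arrays 1 and 2 they were 3.71 in MEG and -1.75 in ERY, with each call kept. Tek, which encodes TIE2, the angiopoietin receptor, was chosen after its values were seen and was called in none of the 3 comparisons. Its mean was 5.80 in MEG, 6.30 in ERY and 6.65 in HSPC, and the MEG mean did not exceed the olfactory receptor range.

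Igf1, insulin-like growth factor 1, was called higher in both MEG and ERY than in HSPC. It had values of 9.01, 7.15, 8.92 and 8.50 in MEG, 7.43, 8.18, 8.18 and 8.13 in ERY, and 6.75, 6.51, 6.01 and 5.97 in HSPC. All HSPC arrays were lower than all others, and MEG array 2 and ERY array 1 were the low arrays of their populations. The change was 2.08 ± 0.36 in MEG against HSPC (4.24-fold, limma adjusted p = 0.000781) and 1.67 ± 0.36 in ERY against HSPC (3.18-fold, limma adjusted p = 0.00327). Without HSPC arrays 3 and 4, the change in ERY was 1.34 and was no longer called (limma adjusted p = 0.0502). Between MEG and ERY the difference was 0.42 (95% interval -0.37 to 1.21, limma adjusted p = 0.497). Without MEG arrays 1 and 3 together it was -0.15 (limma adjusted p = 0.837), and without MEG array 2 alone it was 0.83 (limma adjusted p = 0.0316, under 2-fold). With array weights it was -0.67 (limma adjusted p = 0.0438, under 2-fold), so its direction depended on the MEG arrays and their weights.

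Macrophages, which also make IGF-1, form the centre of erythroblast islands in fetal liver, so the macrophage markers are given beside Igf1. The median of the 14 markers was 6.95, 6.77, 8.16 and 7.34 on the MEG arrays, 8.01, 8.73, 8.41 and 8.50 on the ERY arrays, and 6.66, 6.76, 6.25 and 6.26 on the HSPC arrays. Of the 14, 10 exceeded the olfactory receptor range in MEG, 13 in ERY and 12 in HSPC. In ERY against HSPC, 8 markers were called higher and 0 lower, and in MEG against HSPC 2 were called higher and 0 lower. ERY array 1, with the lowest Igf1 of the ERY arrays, also had their lowest marker median, and MEG array 2, with the lowest Igf1 of the MEG arrays, had theirs. MEG array 1 had the highest Igf1 of the 12 arrays, and its marker median lay below all ERY medians. The part of macrophage RNA in the Igf1 values was not tested.

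**Figure D3:**
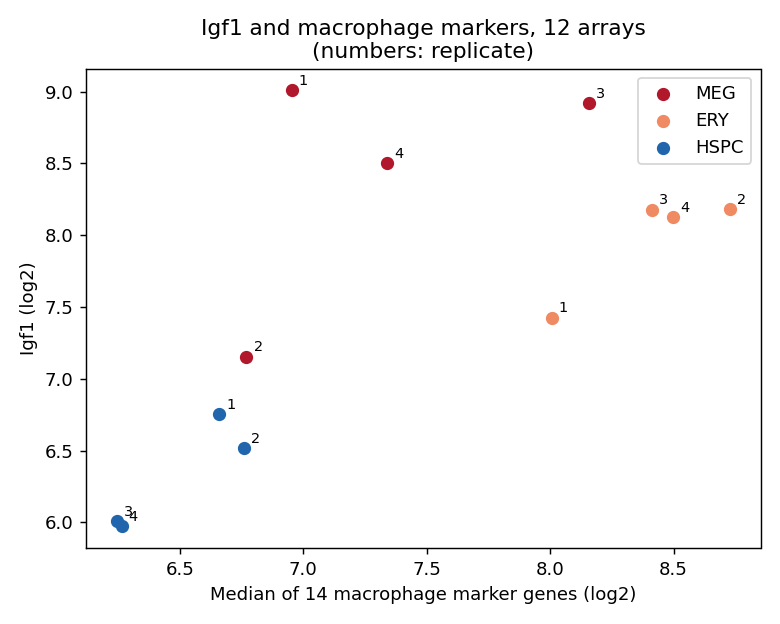
Igf1 (vertical axis, log2) against the median of 14 macrophage marker genes (horizontal axis, log2) on the 12 arrays. Each point is an array with its replicate number, in the colour of its population. HSPC arrays lie at the lower left, ERY arrays at the right, and the MEG arrays spread from 6.77 to 8.16 in markers and from 7.15 to 9.01 in Igf1.

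The fetal growth factor gene Igf2, which is not a member, ran opposite to Igf1 in MEG against HSPC. In ERY against HSPC both were higher. It had values of 6.07, 5.999, 5.59 and 5.92 in MEG, 10.71, 10.72, 10.83 and 10.74 in ERY, and 8.54, 9.64, 7.85 and 8.17 in HSPC. The groups did not overlap, and its change was -2.65 in MEG and 2.20 in ERY against HSPC. Its MEG values lay near the olfactory receptor range, which limits the size of the change in MEG. Igf2 is made by fetal hepatocytes, whose markers ordered the populations the same way (above), and their part in its values was not tested. Of 11 genes for IGF binding proteins and their partners, 0 were called higher in any comparison. Igfbp4 was called lower in both, with changes of -4.20 in MEG and -2.68 in ERY against HSPC, and was the only one called against HSPC. Between MEG and ERY, 3 were called lower in MEG. Among the 12 other insulin-like, angiopoietin and EGF family ligands, 3 were called lower in MEG (Igf2, Angptl4 at -2.10 and Nrg1 at -1.68) and 0 higher.

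Egf, epidermal growth factor, had values between 5.91 and 6.38 on the 12 arrays, close to the olfactory receptor range, and the populations overlapped. Its change was 0.00 in MEG against HSPC (95% interval -0.30 to 0.30) and 0.00 in ERY against HSPC (-0.30 to 0.30). These intervals of the main fit leave out a 2-fold change, but levels this near the olfactory receptor range limit what they show. Its limma adjusted p was 0.991 in MEG and 0.99 in ERY. With centring on ribosomal protein genes the changes were 0.48 ± 0.16 in MEG and 0.42 ± 0.16 in ERY (limma adjusted p = 0.0171 and 0.0348). Both were under 2-fold. Of the 12 other TGF-beta family ligands, 1 was called lower in MEG (Gdf3, -1.31) and 0 in ERY against HSPC, and 0 were called higher.

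Cells that make a factor can also carry its receptor, so the receptors were counted. Of 21 receptor genes, 0 were called higher and 4 lower in MEG against HSPC, where 8.77% of all genes were called higher and 11.4% lower. These were Pdgfrb, the receptor of the PDGF B chain (-2.55), Tgfbr3 (-1.98), Tgfbr2 (-1.10) and Eng (-1.09), of which the last 3 bind TGF-beta ligands. ERY against HSPC had 1 called higher (Igf2r, 1.54) and 4 lower, among them Pdgfrb (-2.54), Eng (-2.47) and Tie1 (-2.31). Between MEG and ERY, 4 were called higher in MEG and 3 lower, with changes of 2.17 for Tie1, 1.42 for Tgfbr1, -1.40 for Igf2r and -1.39 for Tgfbr3. The median of 11 endothelial markers, a list that also holds Tie1 and Kdr, was 5.999 to 7.12 in MEG, 6.30 to 6.74 in ERY and 6.94 to 8.07 in HSPC. That of 12 fibroblast and stellate cell markers, a list that also holds Pdgfrb, was 5.96 to 6.05 in MEG, 6.51 to 6.58 in ERY and 6.05 to 6.30 in HSPC. The part of these cells in the receptor values was not tested.

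Of 18 other genes for alpha granule cargo, 8 were called higher and 3 lower in MEG against HSPC. Vwf (von Willebrand factor) was higher by 4.47, Mmrn1 (multimerin 1) by 4.12, F5 (coagulation factor V) by 4.09 and Thbs1, which is also in the latent TGF-beta list, by 4.03. The 3 called lower were the fibrinogen chains Fga, Fgb and Fgg (-1.32, -1.65 and -1.90), which hepatocytes make and platelets take up. The ERY against HSPC comparison had 3 called higher, again Fga, Fgb and Fgg (2.48, 2.77 and 2.99), and 6 lower. In MEG against ERY, 9 were called higher in MEG and 3 lower. Among 10 proteases that mature growth factor precursors, Adam10 was the only one called higher in both MEG (2.59) and ERY (2.75) against HSPC.

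**Figure D4:**
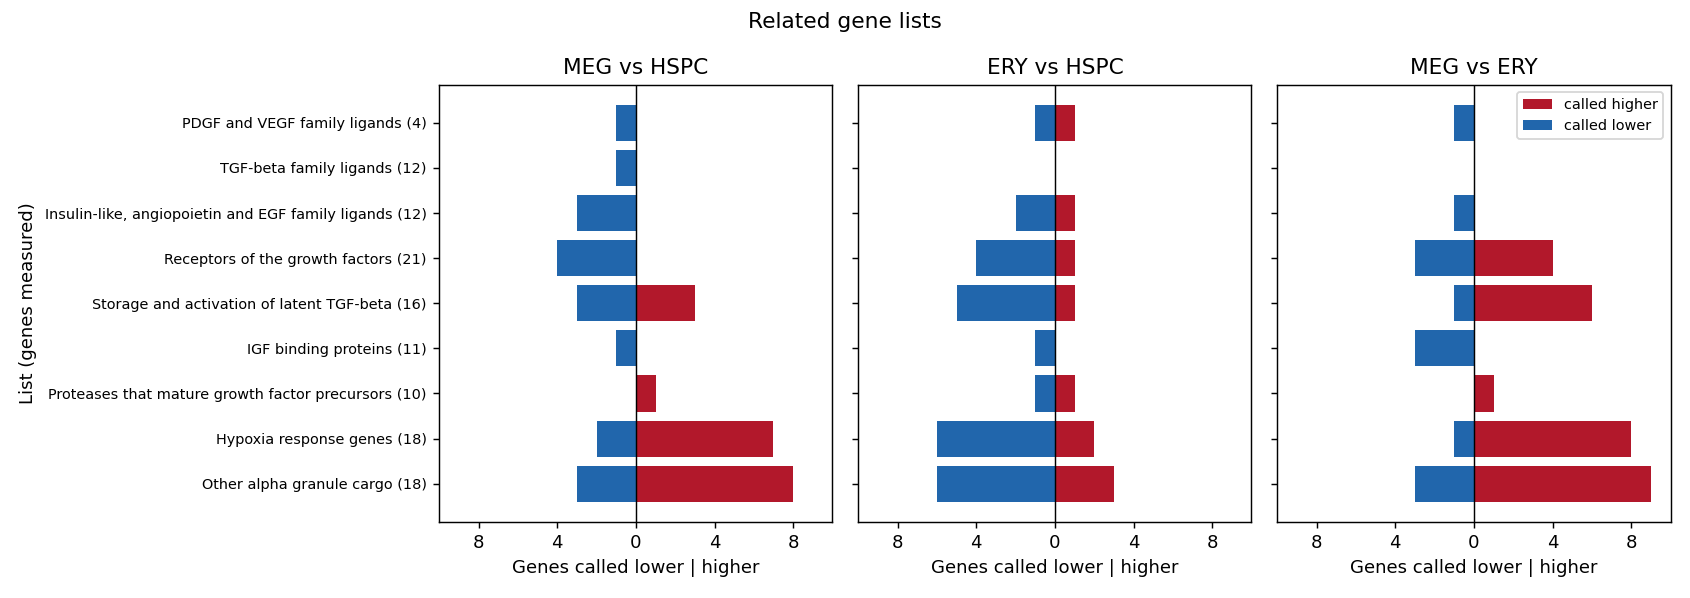
Numbers of genes called higher (red, to the right) and lower (blue, to the left) in 9 lists of related genes, for MEG against HSPC, ERY against HSPC and MEG against ERY. Each row is a list with its number of measured genes in parentheses. Alpha granule cargo and hypoxia response genes have 8 and 7 genes called higher in MEG against HSPC, and receptors have 0. Of all genes, 8.77% were called higher in that comparison.

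For each member, all other genes were ranked by how closely their 12 array values ran with its own, after each gene's mean was subtracted. List genes and the other members were kept in the ranking. The measure was the root-mean-square difference over the 12 arrays, among 12883 genes above the olfactory receptor range in at least 1 population. The nearest to Ltbp1 were P2ry1 (0.24), which encodes a platelet ADP receptor, Elovl7 (0.25) and Slc35d3 (0.27). Nearest to Pdgfb were Gng11 (0.24), Csgalnact1 (0.30) and Ptgir (0.30), the prostacyclin receptor gene. Nearest to Vegfa were Pdlim5 (0.25), Diaph1 (0.26) and Ppfia1 (0.26), and to Tgfb1 Homer3 (0.14), Tpst2 (0.16) and Smtn (0.16). Angpt1 and Igf1 had no neighbour as close. The values were not scaled, so the measure tends to be larger for genes that vary more and compares poorly between members. Nearest to Angpt1 were Tec (0.47), Stat4 (0.53) and Rgs18 (0.53), and to Igf1 Snora31 (0.39), Bach1 (0.41) and Pmp22 (0.45). For Pdgfa they were Gask1b (0.15), Hspb11 (0.17) and 6430548M08Rik (0.19). Pdgfc, Vegfc and Egf, which changed little, had near neighbours in BC049715, Trim41 and Lhx4.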

How the data were processed

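Expression was measured on 12 GeneChip Mouse Gene ST arrays, 4 each of MEG, ERY and HSPC. The authors processed the arrays by RMA and deposited log2 values, with the version and settings not given in the sources used here, for 34760 probe sets. Array medians lay between 5.99 and 6.25, and precision is limited by the number of arrays. Of the probe sets, 21640 carry 1 gene symbol, 1321 several and 11799 none in the platform annotation. For each of 19937 genes the probe set with the highest mean over all arrays was used, and 19855 genes matched a RefSeq table (GRCm38.p6). All 10 members had 1 such probe set.

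The test was limma (3.58.1, under R 4.3.3) with a mean for each population over all 12 arrays, two-sided, with Benjamini-Hochberg adjustment over all genes and no filter on low values. The SE of a gene is therefore the same in each comparison, and does not measure the spread of the compared populations alone. For Angpt1 it was 0.48. With only the 8 arrays compared it was 0.26 in MEG against ERY and 0.55 in MEG against HSPC. The fit was tested on simulated data with independent noise, which does not cover arrays that deviate together as the HSPC arrays did. The 18 gene lists hold 236 entries, of which 224 matched. The members and lists were chosen with earlier results of these data known. Genes are named as all members, up to 4 called genes of a list with the greatest change, and the 3 genes most like a member. A few others were chosen after their values were seen. Alternatives covered the arrays used, a replicate block, filters, scaling, a floor, probe set choice, variance model, array weights, thresholds and FDR. Same-numbered arrays did not deviate together (5 of 12 pairs above a correlation of 0.1), so the numbers were not taken to pair the arrays. Python 3.11.15 (pandas 2.3.3, numpy 2.4.6, matplotlib 3.10.9) made the tables and plots. Chromatin data were not used here.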

Additional observations from a re-analysis of the deposited data

Results flagged for a closer look

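Among 30 sets of 4 arrays, 2 held an array far from the others by Dixon's test, where chance gives about 1 in 20. Vegfa on MEG array 4 was 10.09, above 9.54 to 9.63 on the other MEG arrays. Igf1 on ERY array 1 was 7.43, below 8.13 to 8.18 on the other ERY arrays.

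The change from HSPC differed between MEG and ERY for 5 members by the limma test of MEG against ERY. The difference was 5.47 for Angpt1, 4.59 for Ltbp1, 3.03 for Pdgfb, 2.32 for Tgfb1 and 2.14 for Vegfa on the log2 scale. For Angpt1 the changes ran in opposite directions, and for Tgfb1 the call against HSPC was made in ERY alone.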

How the results depend on the processing

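Of 30 results (10 members in 3 comparisons), 24 kept their side of the thresholds under all alternatives that gave a value (28, or 27 for Vegfc and Egf, which the filter at the median of all probe sets removed), and 0 called changes reversed. Leaving out any 1 of the 12 arrays changed 0 of the 30 calls. Some alternatives could not move a member's change. Among them were the mean over probe sets, since each member had 1, and leaving out arrays of a population not compared. The filters kept a gene by its highest population mean. Vegfc therefore passed the filter at the olfactory receptor range through MEG alone. The number of members called higher in ERY against HSPC was 0 without HSPC arrays 3 and 4, and 0 when tested against the 2-fold threshold (treat). In both, the gene lost was Igf1, which in MEG against HSPC also missed with treat (limma adjusted p = 0.0911). Pdgfa in MEG against HSPC was called with centring on ribosomal protein genes (1.19), with array weights (1.22) and at 1.5-fold. The lower threshold also called Pdgfa in MEG against ERY (0.76) and Ltbp1 in ERY against HSPC (-0.69). With array weights, Pdgfa in MEG against ERY (1.15) and Pdgfb in ERY against HSPC (-1.004) were also called, and Igf1 in MEG against ERY, called under none, turned to -0.67, but the estimation of the weights stopped before its tolerance was reached. The cause was not tested. Centring on ribosomal protein genes moved the median of all genes to 0.46 in MEG and 0.45 in ERY against HSPC, and the share of called genes that were higher to 77.4% and 66.8%, against 43.5% in MEG and 40.5% in ERY without it. The replicate block changed no member's call (Igf1 in MEG against HSPC had a limma adjusted p of 0.00279 with it). Over all genes, 1077 were called higher in MEG against HSPC without HSPC arrays 3 and 4, 2525 without HSPC arrays 1 and 2 and 2717 with array weights, against 1748 with all arrays weighted equally. Low signal limits Vegfc, Pdgfc and Egf, whose levels lay near the olfactory receptor range.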
